A study of Mus musculus with 4 samples.

Results

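Smooth muscle actin and the contractile genes that are commonly read beside it were followed in induced hepatocyte-like (iHep) cells grown in 2D or 3D culture. The 10 genes were Acta2, Actg2, Tagln, Cnn1, Myl9, Tpm1, Tpm2, Cald1, Vcl and Flna, and a probe was taken as theirs when the gene name in the scanner files was one of these symbols or an older alias. This gave 21 of 41174 noncontrol probes on the array, for 9 of the 10 genes, and Myl9 was not analysed here. A further 3 probes, 2 for Tpm1 and 1 for Cald1, were found by other identifiers in the files and are described apart.

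The cells came from C57BL/6 mice and are labelled as derived from MDFs, an abbreviation that the sources used here do not expand. Independent preparations named iHep-1 and iHep-2 each gave 1 array from 2D culture and 1 from 3D culture, so each culture had 2 arrays and the series 4. The comparison asks how gene expression in 3D differed from that in 2D. The factors that induced the cells are not given in the sources used here. The titles of both 2D samples carry a plus sign of unstated meaning, and whatever it marks cannot be told apart from culture. Total RNA of whole cultures was hybridised, so a smaller share of cells with a transcript and less of it per cell cannot be told apart.

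Contractile cells pull on their surroundings by sliding actin filaments past myosin. Smooth muscle cells and myofibroblasts build these filaments from smooth muscle actins and decorate them with tropomyosin, caldesmon, calponin and transgelin, which tune access and sliding of myosin. Many of these genes share promoter elements called CArG boxes, bound by serum response factor with its cofactors of the myocardin family, whose activity follows the state of the actin cytoskeleton. In liver, smooth muscle actin is best known as a sign of activated stellate cells and myofibroblasts, whereas mature hepatocytes carry little of it.

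Levels are given as the scanner's background-corrected processed signal (intensity units) or as its log2 minus that of the array's 75th percentile, so that a log2 level of 0 is the 75th percentile. The percentile itself was 523 and 594 in 2D and 3D of iHep-1 and 616 and 399 in 2D and 3D of iHep-2. Differences are 3D minus 2D of the scaled log2 level unless said otherwise, and are relative to the other probes of an array. Scaling to 6 spike-in control probes in place of the percentile moved the median difference of all probes by -1.09, and all mean differences with it, so relative to that median the mean differences stayed as given. It shifts every difference by -1.67 in iHep-1 and by -0.52 in iHep-2, so that smaller positive differences change sign. Between 23061 and 24413 probes per array were well above background, a flag that the scanner software sets. Of 11 hepatocyte markers on the array, 10 were well above background on all 4 arrays. The other, Foxa2, was below that flag in 2D of iHep-1 and in 3D of iHep-2. Their summed level was 1483 to 2581 times the 75th percentile, most of it from Alb and Fgb. Markers of other cell types were read in part. Of 14 fibroblast markers, 7 were well above background on all 4 arrays (Pdgfra, Col1a2, Col5a1, Fn1, Vim, Twist1, Prrx1) and 3 on none (Dcn, Lum, Thy1). Of 10 pericyte or stellate cell markers, 0 were so on all arrays and 4 on none (Rgs5, Reln, Hand2, Postn). Of 8 striated muscle markers, 2 were read on all arrays (Tnnc1, Mylpf) and 4 on none (Myod1, Myog, Ckm, Actn2). Of 7 endothelial markers, 1 was read on all arrays (Stab2) and 5 on none (Pecam1, Kdr, Tek, Emcn, Erg). Of 7 macrophage or leukocyte markers, 3 were read on all arrays (Cd68, Lyz2, Cd14) and 2 on none (Ptprc, Itgam). The biliary list had 6 markers, of which 5 were read on all arrays (Krt7, Krt19, Epcam, Sox9, Spp1) and 0 on none. Its remaining marker, Cftr, was below the flag on both iHep-2 arrays.

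The sequences of 3 probes show what was read for smooth muscle alpha-actin and for the adhesion and crosslinking genes on which the results turn. Those of Acta2 and Flna reach across exon borders, since their ends lie further apart in the genome than their 60 bases. They are given 5′ to 3′ as in the scanner files, in the direction of the transcript, with positions in mouse build mm9. An annotation of that build was not used here, so exons and untranslated regions are not assigned.
Acta2 A_51_P450957 (chr19:34322995-34326249, minus strand): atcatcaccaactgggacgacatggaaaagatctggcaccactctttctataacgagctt
Vcl A_51_P297131 (chr14:21850831-21850890, plus strand): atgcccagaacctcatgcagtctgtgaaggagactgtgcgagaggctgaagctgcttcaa
Flna A_52_P84384 (chrX:71469314-71470147, minus strand): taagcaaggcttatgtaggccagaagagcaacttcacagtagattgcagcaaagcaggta

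Of the 21 probes, 15 were well above background on all 4 arrays and were tested, which covers 8 genes. The other 6 were not tested: 5 were well above background on no array and 1, for Acta2, on the 2D array of iHep-2 alone. By limma, 0 of the 15 passed an adjusted p of 0.05 (0.0% of the 24468 probes tested passed), with adjusted p from 0.695 to 0.954, and 1 had an unadjusted p under 0.05 (7.02% of all probes). A limma fit that took the experiment as a block called 0 of 15, and 0 had an unadjusted p under 0.05 (13.4% of all probes).

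With the percentile scaling, 8 of the 15 probes were in both experiments lower in 3D (33.8% of all probes), 1 was higher (31.8%) and 6 had opposite signs in the 2 experiments (34.4%). The 2D and 3D values did not overlap for 5 of 15 (41.1% of all probes). In both experiments 0 of 15 were at least 2-fold lower in 3D (1.95%), or 4 with spike-in scaling (20.7% of all probes with that scaling), and 0 were at least 2-fold higher (3.77%). Differences stayed under 0.5 log2 units in both experiments for 9 of 15 (43.9%). The median difference was -0.09 in iHep-1 and -0.31 in iHep-2, beside -0.03 and 0.02 over all probes tested. For the mean of both it was -0.18, beside -0.0019 over all probes, and it was -0.018 without 2D replicate 2, -0.09 without 3D replicate 2 and -0.32 without 2D replicate 1.

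The differences past 0.5 log2 units belonged to 6 probes of 4 genes. A dim Acta2 probe and 2 Flna probes were lower in 3D of iHep-2, and before spike-in scaling 2 Vcl probes were higher in 3D of iHep-1 and the Tagln probe in 3D of iHep-2.

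**Figure D1:**
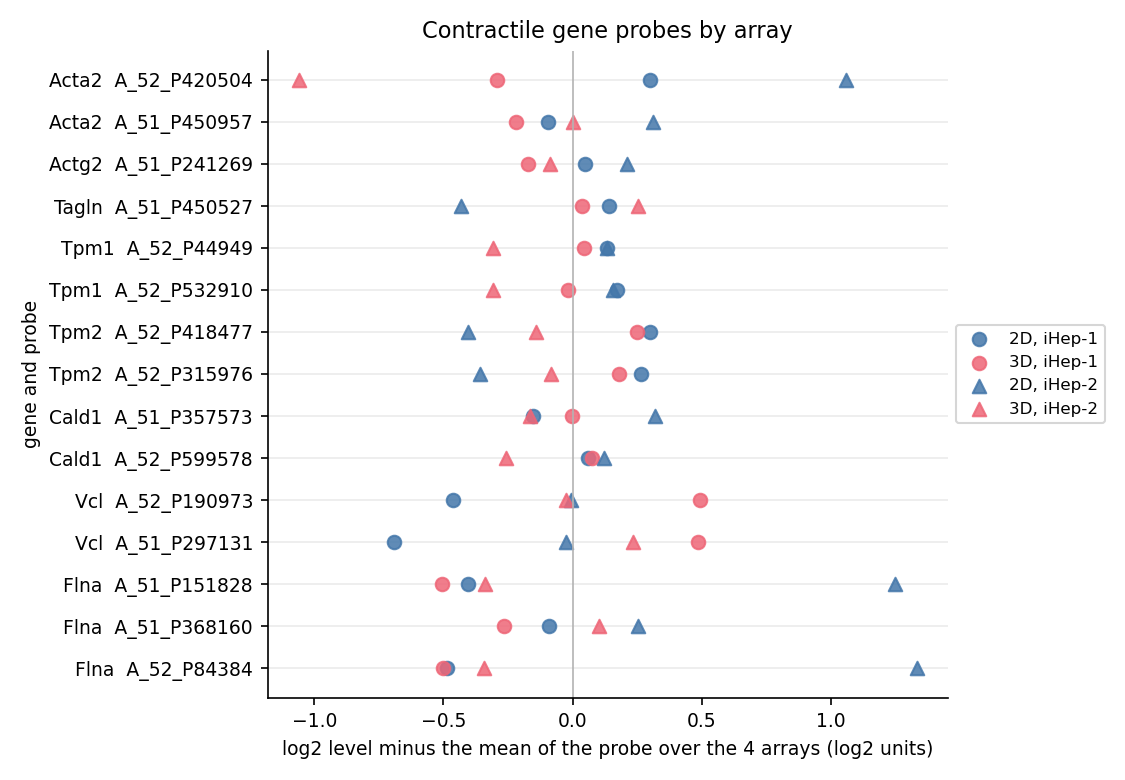
Log2 level of each tested contractile probe on each array (x axis, log2 units, minus the mean of the probe over the 4 arrays), with 1 row per probe; circles are iHep-1, triangles iHep-2, blue 2D and red 3D. The 2D array of iHep-2 is highest for 9 of 15 probes, and 2 Flna probes have it more than 1 log2 unit above their other arrays.

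Acta2 encodes smooth muscle alpha-actin, the actin of vascular smooth muscle and of myofibroblasts. Its probe A_51_P450957, printed above, read 1829.9 and 1911 intensity units in 2D and 3D of iHep-1 and 2861 and 1494 in 2D and 3D of iHep-2. This probe was thus well above background on every array and highest in 2D of iHep-2. The other Acta2 probes, described below, read 91.3 units or less on every array, and the cause of that gap was not tested. After scaling, the differences were -0.12 in iHep-1 and -0.31 in iHep-2, and the 2D and 3D values overlapped. The mean level was 2.01 ± 0.29 in 2D and 1.79 ± 0.16 in 3D (SD, n = 2). The mean difference was -0.22 ± 0.27 (SE; 95% interval -0.99 to 0.56; adjusted p = 0.853, limma).

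A second Acta2 probe, A_52_P420504 (chr19:34316060-34316119, minus strand), is dim and is printed 10 times on each array. Its mean signal was 45.9 and 34.6 in 2D and 3D of iHep-1 and 91.3 and 13.6 in 2D and 3D of iHep-2. Both 3D arrays were below both 2D arrays, and the 3D array of iHep-2 was the lowest. The differences were -0.59 and -2.12, with a mean of -1.35 ± 0.45 (SE; 95% interval -2.64 to -0.069; unadjusted p = 0.0432, adjusted p = 0.695, limma). This was the 1 contractile probe with an unadjusted p under 0.05. With the experiment as a block its unadjusted p was 0.0515 and its adjusted p 0.373 (limma).

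The size of that difference rests on low signals. On the 3D array of iHep-2 the log2 level was -4.87, where the dimmest probe flagged as well above background lay at -5.56. The SD of the 9 unflagged spots there was 0.32 log2 units, against 0.087 to 0.15 on the other arrays. With normexp background correction the mean difference was -0.40. The 2 tested Acta2 probes gave differences of the same sign in both experiments but of different size. The 3 further Acta2 probes named by the rule, A_52_P644232, A_52_P239556 and A_52_P210078, read between 1.81 and 9.59 units, and no fold is given for them.

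**Figure D2:**
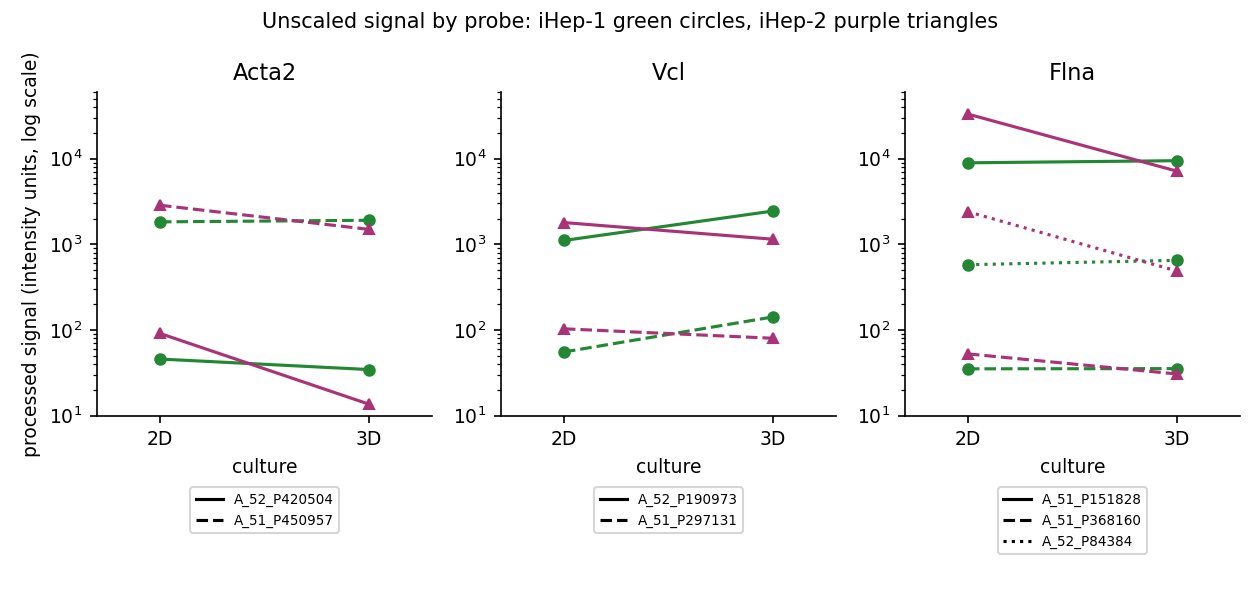
Processed signal (y axis, intensity units, log scale, not scaled between arrays) of the tested Acta2, Vcl and Flna probes in 2D and 3D (x axis); green circles are iHep-1, purple triangles iHep-2, and lines join the 2 arrays of an experiment for 1 probe. The Flna probes A_51_P151828 and A_52_P84384 have their highest signals, 33146 and 2404, in 2D of iHep-2, and both Vcl probes have theirs, 2450.2 and 142, in 3D of iHep-1.

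Actg2 encodes the gamma-actin of visceral smooth muscle. Its only probe, A_51_P241269, read 580.0 and 565 units in 2D and 3D of iHep-1 and 764 and 403 in 2D and 3D of iHep-2. The scaled levels were 0.15 and -0.07 in iHep-1 and 0.31 and 0.01 in iHep-2, so both 3D arrays lay just below both 2D arrays. The differences of -0.22 and -0.30 gave a mean of -0.26 ± 0.22 (SE; 95% interval -0.89 to 0.37; adjusted p = 0.784, limma). The closely related actins share long stretches of coding sequence. No other probe on the array shared at least 30 aligned bases at 75% identity with those of Acta2 or Actg2. That search compared probes with probes and not with transcripts of other genes, so it cannot show whether these probes also read other actins. Cross-hybridisation was not tested.

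Tagln encodes transgelin, an actin-bundling protein that appears early in smooth muscle differentiation. The probe A_51_P450527 (chr9:45738097-45738156, minus strand) read 3116 and 3291 units in 2D and 3D of iHep-1 and 2467 and 2565 in 2D and 3D of iHep-2. These unscaled signals were close within each experiment, and the scaled levels of 2.57 and 2.47 in iHep-1 and of 2.00 and 2.68 in iHep-2 overlapped between the cultures. The differences were thus -0.10 and 0.68, with a mean of 0.29 ± 0.31 (SE; 95% interval -0.59 to 1.17; adjusted p = 0.823, limma). The 75th percentile differed by -0.63 log2 units between 3D and 2D of iHep-2, so that an equal unscaled signal there gives a scaled difference of similar size and opposite sign. With spike-in scaling the mean difference was -0.81. The other Tagln probe, A_52_P517683, was well above background on no array, at 2.28 to 8.01 units.

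Cnn1 encodes calponin, which holds back myosin sliding and marks mature smooth muscle. Its 1 probe, A_51_P350817 (chr9:21913058-21913117, plus strand), was well above background on no array. It read 1.82 and 1.94 units in 2D and 3D of iHep-1 and 8.33 and 1.84 in 2D and 3D of iHep-2. No level and no difference between the cultures could be read for Cnn1. Myl9, the regulatory light chain of smooth muscle myosin, was not analysed here.

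The tropomyosins lie along the actin filament and set which proteins reach it. For Tpm1, A_52_P44949 (chr9:66870869-66870928, minus strand) read 10952 and 11709 units in 2D and 3D of iHep-1 and 12919 and 6150.1 in 2D and 3D of iHep-2. The second probe, A_52_P532910 (chr9:66880625-66881695, minus strand), read 5859 and 5824 in iHep-1 and 6824 and 3197 in iHep-2, again in 2D and 3D. Both probes had their lowest scaled level in 3D of iHep-2, and neither had 2D and 3D values that overlapped. The differences were -0.09 and -0.44 for the first and -0.19 and -0.47 for the second. Their means were -0.27 ± 0.25 and -0.33 ± 0.23 (SE; 95% intervals -0.97 to 0.44 and -1.002 to 0.34; adjusted p = 0.798 and 0.754, limma).

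The 2 Tpm1 probes named in the files by a transcript identifier differed from these and from each other. A_51_P325173 (chr9:66875959-66877514) read 170 and 198 units in 2D and 3D of iHep-1 and 166 and 85.7 in iHep-2, with differences of 0.03 and -0.32. A_51_P378371 (chr9:66871867-66871926) read 5.85 and 9.77 in iHep-1 and 14.6 and 11.6 in iHep-2, with differences of 0.56 and 0.29 before spike-in scaling. It was below the background flag in 2D of iHep-1. Tpm1 makes many isoforms by alternative splicing, and which of them each probe reads was not assigned here.

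Tpm2 encodes beta-tropomyosin, and its probes differed in the opposite sense from Tpm1 in iHep-2 before spike-in scaling. A_52_P418477 (chr4:43532150-43532300, minus strand) read 221 and 243 units in 2D and 3D of iHep-1 and 160 and 124 in 2D and 3D of iHep-2, and A_52_P315976 (chr4:43531276-43531335, minus strand) read 169 and 181 in iHep-1 and 129 and 101.4 in iHep-2. For both probes the iHep-1 arrays were higher than the iHep-2 arrays, whichever the culture. The differences between cultures were -0.05 and 0.26 for the first probe and -0.08 and 0.28 for the second. Their means were 0.11 ± 0.36 and 0.097 ± 0.32 (SE; 95% intervals -0.93 to 1.15 and -0.83 to 1.03; adjusted p = 0.954 for both, limma), or -0.99 and -0.998 with spike-in scaling.

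The Tpm1 probe A_52_P532910 and the Tpm2 probe A_52_P418477 cover the same stretch of related coding sequence over 33 bases, of which 27 were identical and 6 differed (81.8% identity). This was the only pair among the member probes and all other probes with an aligned overlap of at least 30 bases at 75% identity. The shared stretch is shown with the differing bases in capitals. In iHep-2 the 2 probes gave differences of opposite sign before spike-in scaling, and cross-hybridisation was not tested.
Tpm1 A_52_P532910: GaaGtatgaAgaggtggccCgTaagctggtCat
Tpm2 A_52_P418477: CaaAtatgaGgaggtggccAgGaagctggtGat

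Cald1 encodes caldesmon, which blocks myosin from actin until calcium signals release it, and which also exists as a shorter form outside muscle. A_51_P357573 (chr6:34723839-34723898, plus strand) read 335 and 422 units in 2D and 3D of iHep-1 and 546 and 253 in 2D and 3D of iHep-2. A_52_P599578 (chr6:34703475-34703534, plus strand) read 243 and 280 in iHep-1 and 299 and 149 in iHep-2. In both probes 2D of iHep-2 was the highest array and 3D of iHep-2 the lowest. In iHep-1 the 3D level lay above the 2D level, so the 2D and 3D values overlapped. The differences were 0.15 and -0.48 for the first and 0.016 and -0.38 for the second. Their means were -0.17 ± 0.28 and -0.18 ± 0.24 (SE; 95% intervals -0.96 to 0.63 and -0.88 to 0.52; adjusted p = 0.897 and 0.866, limma). The Cald1 probe named by a transcript identifier, A_52_P513153, read 56.2 and 54.8 in iHep-1 and 106 and 47.2 in iHep-2, with differences of -0.22 and -0.54.

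Vcl encodes vinculin, which ties actin filaments to integrin adhesions and to cadherin junctions under tension. Its probe A_52_P190973 (chr14:21852105-21852164, plus strand) read 1109 and 2450.2 units in 2D and 3D of iHep-1 and 1796 and 1147 in 2D and 3D of iHep-2. The probe A_51_P297131, printed above, read 55.4 and 142 in iHep-1 and 103 and 80.1 in iHep-2. Both probes thus had their lowest signal in 2D of iHep-1 and their highest in 3D of iHep-1, while in iHep-2 the unscaled signal was lower in 3D.

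After scaling, the Vcl differences were 0.96 and -0.02 for A_52_P190973 and 1.18 and 0.26 for A_51_P297131. The second was the 1 contractile probe at least 2-fold higher in 3D of iHep-1 (6.94% of all probes), and 0 of 15 were so in iHep-2 (11.4%). Its 2D and 3D values did not overlap, while those of A_52_P190973 did. The means were 0.47 ± 0.33 and 0.72 ± 0.33 (SE; 95% intervals -0.48 to 1.42 and -0.24 to 1.68; adjusted p = 0.751 and 0.702, limma), or -0.62 and -0.38 with spike-in scaling. Without 3D replicate 1 the means were 0.21 and 0.59. With normexp background correction they were 0.45 and 0.48.

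Flna encodes filamin A, which crosslinks actin into networks and links it to integrins. A_51_P151828 (chrX:71468844-71468903, minus strand) read 8947 and 9472 units in 2D and 3D of iHep-1 and 33146 and 7141 in 2D and 3D of iHep-2. A_52_P84384, printed above, read 579 and 651 in iHep-1 and 2404 and 488 in iHep-2. In both probes 1 array, 2D of iHep-2, stood far above the other 3, which lay close to each other. The differences were -0.10 and -1.59 for the first probe and -0.01 and -1.67 for the second, so 3D lay more than 2-fold below 2D in iHep-2 and at about its level in iHep-1.

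With the dim Acta2 probe, these made up the 3 of 15 that were at least 2-fold lower in 3D of iHep-2 (8.05% of all probes), and 0 of 15 were so in iHep-1 (3.8%). The mean Flna differences were -0.84 ± 0.65 and -0.84 ± 0.70 (SE; 95% intervals -2.70 to 1.01 and -2.86 to 1.17; adjusted p = 0.769 and 0.781, limma). Without 2D replicate 2 they were -0.018 and 0.066. Between the experiments the 2 probes were higher in iHep-2 by 1.65 and 1.82 log2 units in 2D, and by 0.17 and 0.16 in 3D. Whether the culture difference itself differed between the experiments could not be tested with 1 array per culture in each.

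Another Flna probe, A_51_P368160, lay further toward the start of the gene and was dim, at 35.2 and 35.5 units in 2D and 3D of iHep-1 and 52.7 and 30.7 in 2D and 3D of iHep-2. Its differences were -0.18 and -0.15, with a mean of -0.16 ± 0.28 (SE; 95% interval -0.96 to 0.64; adjusted p = 0.899, limma). It did not show the high 2D level of iHep-2 to the extent that the other 2 probes did, and the cause was not tested. The sequence is given for comparison with that of A_52_P84384. The remaining probe, A_52_P582722, was well above background on no array.
Flna A_51_P368160 (chrX:71482091-71482150, minus strand): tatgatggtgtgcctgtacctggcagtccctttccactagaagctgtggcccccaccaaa

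**Figure D3:**
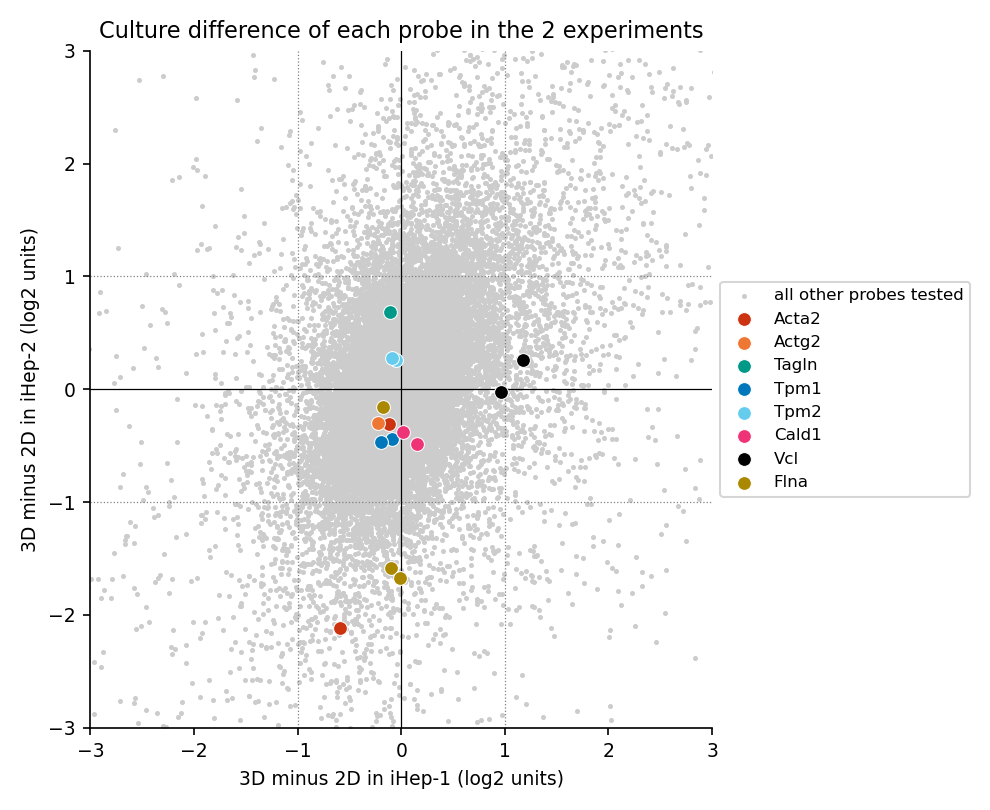
Difference between cultures (3D minus 2D, log2 units) of each tested probe in iHep-1 (x axis) and iHep-2 (y axis); colours mark the contractile genes, grey all other probes, and dotted lines mark 2-fold. With the percentile scaling, 9 of 15 contractile probes lie within 0.5 log2 units of 0 on both axes, 1 Acta2 and 2 Flna probes lie below -1 on the y axis and 1 Vcl probe beyond 1 on the x axis, and 859 probes outside the plotted range of 3 log2 units are not drawn.

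Levels of the contractile probes were also set side by side between the experiments, without a test. The median over the 15 probes of iHep-2 minus iHep-1 was 0.34 in 2D and -0.25 in 3D, beside -0.05 and -0.02 over all probes. In both cultures 5 of the 15 were higher in iHep-2 (29.1% of all probes) and 3 were lower (34.7%), and 0 were at least 2-fold higher (4.6% of all probes) or lower (5.12%) in both. The 2D array of iHep-2 had the highest level for 9 of 15 probes, against 25.7% of all probes. These 9 belong to Acta2, Actg2, Tpm1, Cald1 and Flna, some with more than 1 probe, so they are not separate genes. For Tpm1 A_52_P44949 that array was above 2D of iHep-1 by only 0.0029 log2 units. The highest level of the other 6 lay on the 2D array of iHep-1 for 3 probes (23.7%), on the 3D array of iHep-1 for 2 (22.2%) and on the 3D array of iHep-2 for 1 (28.4%).

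Of the 14 fibroblast markers, 3 had their highest level on the 2D array of iHep-2, namely Vim, Fn1 and Fbln1, and 8 had their lowest level there. Among these 8, Dcn, Lum, Dpt, Col1a1 and Thy1 were below the background flag on that array, so their rank rests on background signal. In 2D and 3D, the 14 markers summed to 28.7 and 45.1 in iHep-1 and to 79.7 and 30.6 in iHep-2. These sums are multiples of the 75th percentile, with 7, 10, 8 and 7 of the 14 well above background in that order. Vim, the intermediate filament protein vimentin, stood at log2 levels of 3.61 and 4.72 in iHep-1 and 5.86 and 3.90 in iHep-2, and Fn1, fibronectin, at 3.46 and 3.33 in iHep-1 and 4.04 and 2.90 in iHep-2. These 2 genes made up 74.4 of the sum in 2D of iHep-2, and the other 12 markers summed to 5.47 and 8.65 in 2D and 3D of iHep-1 and to 5.38 and 8.19 in 2D and 3D of iHep-2. The 10 pericyte or stellate cell markers summed to 0.338 to 0.769 on the 4 arrays, and the 8 striated muscle markers to 0.470 to 1.03. Biliary markers summed to 16.1 and 25.3 in iHep-1 and to 46.8 and 30.1 in iHep-2. The part of these markers in the contractile levels was not tested.

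Other genes of smooth muscle differentiation were partly unread. Of 24 such genes, 17 were tested and 7 were not. Among these 7, Myh11, the smooth muscle myosin heavy chain, Des, the intermediate filament protein desmin, Kcnmb1 and Jph2 were well above background on no array, and Lmod1, Pdlim3 and Synm on 1 array each. With 1 probe per gene, 0 of the 17 passed the adjusted threshold of limma and 2 had an unadjusted p under 0.05 (0.0% and 7.03% of the 16451 genes tested). In both experiments 4 were lower in 3D (33.0% of all genes) and 5 higher (33.2%). The median difference was 0.11 in iHep-1 and -0.40 in iHep-2, beside -0.02 and 0.04 over all genes.

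By size, and before spike-in scaling, 2 of the 17 reached a 2-fold higher level in 3D in both experiments (4.26% of all genes) and 0 a 2-fold lower one (2.13%). Hspb6, a small heat shock protein linked to smooth muscle relaxation, had differences of 1.28 and 1.98 (adjusted p = 0.684, limma). Fhl1, a LIM domain protein of muscle, had 1.08 and 1.60 (adjusted p = 0.684, limma). Ppp1r14a, an inhibitor of myosin phosphatase, had -0.97 and -0.99 and was below the background flag in 3D of iHep-2. Itga8, an integrin of smooth muscle, had -2.51 and -0.47 and was below that flag on both iHep-2 arrays, where its second probe gave 0.74. The 2 genes with the larger positive differences were well above background on all 4 arrays. Of these, Hspb6 was dim in 2D, at log2 levels of -3.95 in iHep-1 and -4.37 in iHep-2. Differences of the 2 genes with negative values also rest in part on dim values.

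Among 26 genes of nonmuscle actin, myosin and their binding proteins, all of which were tested, 12 were lower (33.0% of all genes) and 5 higher (33.2%) in 3D in both experiments. By limma 0 were called (0.0%), with 1 at an unadjusted p under 0.05 (7.03%). The medians were -0.05 and -0.38, beside -0.02 and 0.04 over all genes. Myh14, a nonmuscle myosin heavy chain, had differences of 1.05 and 0.92 before spike-in scaling (a dimmer probe gave -0.025 and 0.51). Flnc, the filamin of muscle, had -0.86 and -3.99, was below the background flag in 3D of iHep-1, and like its relative Flna was highest in 2D of iHep-2. Smaller differences came from its other probes, at -0.24 and -2.86, and at -0.53 and -1.02. Tmsb10, a thymosin that binds actin monomers, had -1.17 and -0.67, and Myl12a, a nonmuscle myosin light chain, had -0.59 and -1.26. In limma these 4 genes had an adjusted p of 0.684 to 0.884.

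Of 20 focal adhesion genes, 12 were lower (33.0% of all genes) and 5 higher (33.2%) in 3D in both experiments, with medians of -0.10 and -0.33, beside -0.02 and 0.04 over all genes. By limma, 0 passed the adjusted threshold (0.0%) and 2 had an unadjusted p under 0.05 (7.03%). Tln2, a talin that activates integrins and recruits vinculin, was the 1 gene of the list at least 2-fold lower in both (2.13% of all genes), with differences of -1.33 and -1.28 (adjusted p = 0.774, limma). Its other probes gave -1.50 and -1.82, and -0.27 and -2.01. Before spike-in scaling, Lims2, an adaptor of the integrin-linked kinase, had 0.96 and 1.26. Tgfb1i1, the adhesion protein HIC-5, had 0.55 and 0.73, also before that scaling. The other Tgfb1i1 probes gave 0.57 and 0.69, and -0.20 and 0.72. Itgb1, the beta subunit shared by many integrins, had -0.51 and -0.81, and its second probe gave -0.49 and -0.75.

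Srf encodes serum response factor, which binds the CArG box. It stood at log2 levels of 1.98 and 1.32 in 2D and 3D of iHep-1 and 1.92 and 1.21 in 2D and 3D of iHep-2. Both 3D arrays were below both 2D arrays by a similar amount, with differences of -0.67 and -0.71 (unadjusted p = 0.0356, adjusted p = 0.684, limma). Before spike-in scaling, Diaph1, a formin that nucleates actin, had 0.41 and 0.41, and its second probe gave 0.15 and 0.37. Also before that scaling, Mrtfb, a cofactor of SRF, had 0.27 and 0.42, and Smad7, an inhibitor of TGF-beta signalling, 0.20 and 0.44. Myocd, the cofactor myocardin, and Elk1 were well above background on no array.

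**Figure D4:**
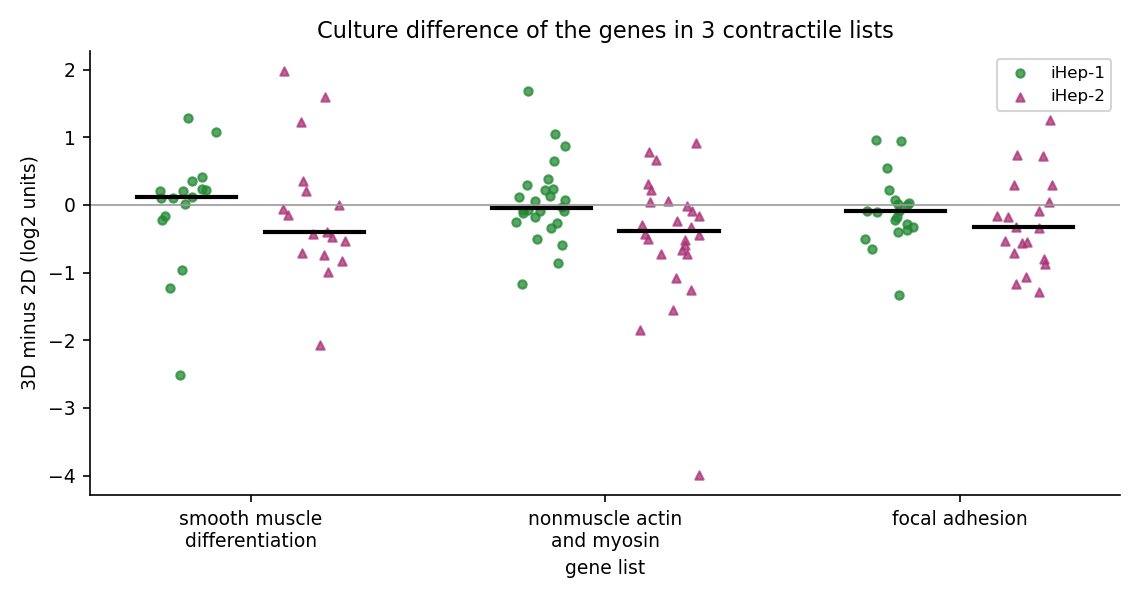
Difference between cultures (3D minus 2D, log2 units, y axis) of each tested gene in 3 gene lists (x axis), 1 probe per gene; green circles are iHep-1, purple triangles iHep-2, and black bars are the medians. With the percentile scaling the medians run from -0.10 to 0.11 in iHep-1 and from -0.40 to -0.33 in iHep-2, and the lowest point is Flnc in iHep-2 at -3.99.

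The CArG box was searched in the 250 bases before the start in RefSeq promoters of build GRCm38.p6. It is a palindromic motif, so 1 search covers both strands. Of all 32851 promoter windows, 482 held a box (1.47%). The table had 9 windows for 8 of the 10 contractile genes, without Tagln and Actg2, and 2 of these windows held a box, those of Vcl and Myl9. The box of Vcl begins 227 bases before the start and that of Myl9 begins 161 bases before it. The windows are shown with the box in capitals. Only exact matches to the motif within these 250 bases were sought, so boxes with a changed base or further off were not counted. A match describes the letters and is not evidence of a bound site.
Vcl promoter (chr14:20929148-20929207, plus strand): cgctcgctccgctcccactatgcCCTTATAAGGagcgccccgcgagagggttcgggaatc
Myl9 promoter (chr2:156775280-156775339, plus strand): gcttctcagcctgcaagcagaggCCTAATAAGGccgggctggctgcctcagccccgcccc

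The genes whose pattern over the 4 arrays was most like that of Acta2 were ranked by the root mean square difference of centred log2 levels, over the 21617 probes that every array read well above background. For the brighter Acta2 probe, A_51_P450957, they were Zfp668 (0.013 log2 units), Proser1 (0.014) and Kdm1b (0.021). Zfp668 had differences of -0.15 and -0.32, Proser1 of -0.15 and -0.32, and Kdm1b of -0.07 and -0.29. The ranking left the contractile genes themselves out, and a pattern over 4 values is a description only.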

How the data were processed

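Total RNA of the 4 samples was amplified and labelled with Cy3, per the labels' protocols, and each was hybridised in a single colour to its own array (Agilent design 014868). All arrays lay on 1 slide with 1 scan time, per the file headers. The scanner files deposited by the authors give spot intensity on a linear scale, written by Agilent Feature Extraction. The file headers name its version 10.7.1.1, whereas the submitters' processing notes name 9.5.1.1. Probe positions are those of mm9, per the file headers. The authors' series table holds intensity values with the same median in both arrays of an experiment (26.3 in iHep-1, 22.6 in iHep-2). Their Spearman correlation with the processed signal over the probes of an array was at least 0.99998, so their direction was taken from that comparison. A rank correlation cannot show scale, and the values were treated as linear and put on a log2 scale. The normalization of these values is not stated. They served as an alternative.

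The processed signal was put on a log2 scale and each array's 75th percentile was subtracted. Spots flagged as nonuniform or as outliers were left out (72 to 85 per array), no spot was saturated, and spots of 1 probe were averaged. Of the probes, 24844 were named by accession and 7855 by symbol or synonym in a RefSeq table of GRCm38.p6, and 8475 kept the name in the files. Probes well above background on at least 2 arrays were tested with lmFit and eBayes of limma 3.58.1 under R 4.3.3 (two-sided, 2 residual and 1.70 prior degrees of freedom), with Benjamini-Hochberg adjustment over all 24468 probes and a threshold of 0.05. For gene lists, the probe with the highest mean stood for a gene, which gave 16451 genes. The number of arrays limits the precision.

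The replicate numbers pair the arrays, since the design text gives iHep-1 and iHep-2 as independent experiments. Deviations of same-numbered arrays from their culture means correlated across probes (r = 0.66). A fit with the experiment as a block was an alternative, as were quantile and spike-in scaling, normexp background correction with an offset of 50, other filters, 1 probe per gene and leaving out each array. Named genes were all members, up to 4 genes of each pathway list with the largest smaller difference of 1 sign in both experiments, and the 3 genes most like Acta2. The counts of a further pathway list and 1 probe sequence are not reported here. The members and the lists were chosen with earlier results of these data known.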

Additional observations from a re-analysis of the deposited data

Results flagged for a closer look

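For 6 of the 15 tested contractile probes the difference between cultures had opposite signs in iHep-1 and iHep-2. With a single array per culture and experiment, none of these differences was tested. The iHep-2 difference minus the iHep-1 difference was 0.79 log2 units for Tagln A_51_P450527, 0.31 for Tpm2 A_52_P418477 and 0.36 for Tpm2 A_52_P315976. It was -0.63 for Cald1 A_51_P357573, -0.39 for Cald1 A_52_P599578 and -0.98 for Vcl A_52_P190973. Opposite signs were as common over all probes tested (34.4%).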

How the results depend on the processing

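With spike-in scaling limma called 414 probes (97 higher and 317 lower in 3D), where the median difference of all probes was -1.10. It called 0 under each other alternative run, the replicate block included, so the call depends on the scaling. In the spike-in fit the prior degrees of freedom were infinite, so all probes shared the same variance and an SE of 0.93. Calls there follow the size of the mean difference alone, and the 414 are not read as culture differences. No contractile probe passed under any alternative: the lowest adjusted p was 0.261 with spike-in scaling and 0.373 otherwise, in the fit with the replicate block (limma). The count of contractile probes at least 2-fold lower in both experiments was 4 with spike-in scaling, and by single experiments it ran from 0 to 3. The count at least 2-fold higher ran from 0 to 1 in the same way. The median over contractile probes was -1.28 with spike-in scaling and ran from -0.32 to -0.018 when 1 array was left out.

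Of 173 probe values under alternatives, 159 kept their sign and 14 reversed it, in 8 probes. The replicate block, the other filters and 1 probe per gene leave a probe's mean difference unchanged. Signs kept under these alternatives were thus fixed in advance and say nothing on stability. With spike-in scaling the reversed values were -0.81 for Tagln, -0.99 and -0.998 for Tpm2 A_52_P418477 and A_52_P315976, and -0.62 and -0.38 for Vcl A_52_P190973 and A_51_P297131. With normexp background correction Flna A_51_P368160 was 0.058. The others reversed when 1 array was left out. The range was then -0.24 to 0.46 for Tpm2 A_52_P418477 and -0.21 to 0.41 for Tpm2 A_52_P315976, with negative values without 3D replicate 1 (-0.088 and -0.034) or without 2D replicate 2. It was -0.40 to 0.069 for Cald1 A_51_P357573 and -1.75 to 0.066 for Flna A_52_P84384, positive without 2D replicate 2. For Flna A_51_P368160 it was -0.35 to 0.019, positive without 3D replicate 1 or without 2D replicate 2 (0.0080). In such fits the lone array of a culture is assumed to vary like those of the other culture. Probes near background, such as Acta2 A_52_P420504, give the least certain sizes.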
